A study of Mus musculus with 4 samples.

Results

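The 18 genes of S phase and the 18 genes of G2 phase and mitosis (G2/M) described here are 36 of the 31914 genes in the joined feature lists. They were taken by symbol from lists of cell cycle genes, and each symbol matched 1 gene identifier, the same in all 4 libraries. Both feature lists, of fetal liver and of periphery, hold all 36, among 27566 genes they share.

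The libraries hold single cells of C57BL/6J mouse embryos, from fetal liver and from the embryonic periphery, each taken at the embryonic stages E13.5 and E14.5, with 1 library for each tissue and stage. In every group CD45+ cells were enriched on magnetic beads, and living CD45+ F4/80- IL7Rα+ cells were then sorted. The study addressed how lymphoid tissue inducer (LTi) cells arise, which are innate lymphocytes that organise the first lymph nodes. No genetic change, treatment or number of embryos is named in the labels. Fetal liver was prepared with version 3 and periphery with version 2 of the 3′ kit, so tissue and kit cannot be told apart.

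A cell that divides copies its DNA in S phase and separates the copies in mitosis. Cells entering S phase express the MCM helicase, licensing factors and enzymes that supply nucleotides, mainly under E2F factors. Cells in G2 and mitosis express cyclin B, its kinase and spindle and centromere proteins, under B-Myb and FoxM1, and many of these transcripts fall after division. In the fetal liver, blood progenitors divide much of the time, while maturing lymphocytes can leave the cycle.

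Promoter sequences are shown for 4 members, 2 from each list, because they hold the motifs that the 2 kinds of gene are known for. The RefSeq table of GRCm38.p6 promoters held 16 of the 18 S genes and 15 of the 18 G2/M genes, without Mcm4, Gins2, Ccna2, Aurkb and Tpx2. The 250 bases before the RefSeq start of each gene are given 5′ to 3′ on the strand of the gene, with the motifs that were searched in capitals on either strand. Mcm6 lies on the minus strand at chr1:128359706-128359955, Mcm5 on the plus strand at chr8:75109259-75109508, and Ccnb2 and Top2a on the minus strand at chr9:70421555-70421804 and chr11:99024190-99024439. Positions are counted from that RefSeq start, which can differ from the GENCODE gene bounds given with the values.
Mcm6: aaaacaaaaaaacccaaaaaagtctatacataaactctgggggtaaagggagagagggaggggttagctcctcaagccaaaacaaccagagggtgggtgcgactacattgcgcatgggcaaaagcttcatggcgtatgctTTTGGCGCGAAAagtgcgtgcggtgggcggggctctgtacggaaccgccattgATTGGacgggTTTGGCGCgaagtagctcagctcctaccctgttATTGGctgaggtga
Mcm5: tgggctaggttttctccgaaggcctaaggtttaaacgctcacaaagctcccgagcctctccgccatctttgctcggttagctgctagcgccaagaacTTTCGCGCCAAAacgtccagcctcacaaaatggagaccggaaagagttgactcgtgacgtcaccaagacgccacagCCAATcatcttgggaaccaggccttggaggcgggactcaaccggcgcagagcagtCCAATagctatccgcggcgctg
Ccnb2: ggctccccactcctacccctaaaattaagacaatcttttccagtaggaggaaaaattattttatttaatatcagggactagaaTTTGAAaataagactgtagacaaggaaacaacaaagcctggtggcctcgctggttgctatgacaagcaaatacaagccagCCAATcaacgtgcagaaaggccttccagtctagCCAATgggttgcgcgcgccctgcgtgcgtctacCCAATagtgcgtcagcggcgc
Top2a: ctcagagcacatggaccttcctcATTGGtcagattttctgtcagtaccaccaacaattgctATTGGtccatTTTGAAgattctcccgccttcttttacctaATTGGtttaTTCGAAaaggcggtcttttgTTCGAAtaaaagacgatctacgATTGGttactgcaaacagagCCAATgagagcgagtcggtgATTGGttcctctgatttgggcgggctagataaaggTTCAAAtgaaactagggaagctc
In Mcm6, TTTGGCGC begins at -110 and -47 from the start, and in Mcm5 TTTCGCGC begins at -153. In both genes a second such motif on the other strand overlaps the first, at -106 in Mcm6 and -149 in Mcm5. Ccnb2 holds CCAAT at -87, -54 and -21 and TTTGAA at -167. Top2a holds TTTGAA at -179 and, on the other strand, at -23, with TTCGAA at -140 and -120.

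The search covered CCAAT, bound by NF-Y, TTTGAA or TTCGAA, the letters of the cell cycle homology region, and 4 E2F-type motifs, TTTGGCGC, TTTGCCGC, TTTCGCGC and TTTCCCGC, each on both strands. CCAAT stood in the window of 13 of 15 G2/M genes and 11 of 16 S genes, against 37.5% of 27025 genes. TTTGAA or TTCGAA stood in 6 of 15 G2/M genes, which were Mki67, Top2a, Cdk1, Ccnb2, Cdc20 and Ube2c, and in 3 of 16 S genes, against 19.6% of all genes. An E2F-type motif stood in 6 of 16 S genes, which were Mcm5, Mcm6, Mcm7, Cdc6, Hells and Uhrf1, and in 1 of 15 G2/M genes, Cdk1, against 2.16% of all genes. These matches describe letters in the window and no binding.

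The matrices hold 212034840 and 208229937 UMIs (unique molecular identifiers, 1 per captured RNA molecule) in fetal liver at the earlier and the later stage, and 53229734 and 44599592 in periphery. After filtering, 10259, 10809, 4165 and 4360 cells were kept in that order, with median depths of 18448, 15600, 11084 and 8528.5 UMIs. Kept cells of the 2 fetal liver libraries shared 25 barcodes, those of the 2 periphery libraries shared 25, and other pairs shared at most 1. The sort took IL7Rα+ cells, and clusters named LTi-like held 4.11 and 2.09% of fetal liver cells and 42.7 and 73.1% of periphery cells. Unnamed clusters P1, with 11.3% of periphery cells at E13.5, and P2, with 3.10% at E14.5, also carried most LTi markers. Hepatocyte markers summed to at most 3.02 CPM (the UMIs of a gene per 1000000 UMIs). With 1 library per group, nothing was tested, cells were not used as replicates, and intervals in parentheses are 95% intervals for counting error only.

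Both lists were higher in fetal liver than in periphery when summed over all kept cells. The S genes summed to 3218 (3210.5 to 3226) and 3648 (3639 to 3656) CPM in fetal liver (E13.5, then E14.5), and to 2229 (2216 to 2242) and 2797 (2781 to 2813) CPM in periphery. The G2/M genes summed to 4503 (4494 to 4512), 4606 (4597 to 4616), 2777 (2763 to 2792) and 3389.5 (3372 to 3407) CPM in the same order of libraries, which is kept for every set of 4 values that follows. The G2/M to S ratio of these sums was 1.40, 1.26, 1.25 and 1.21.

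**Figure D1:**
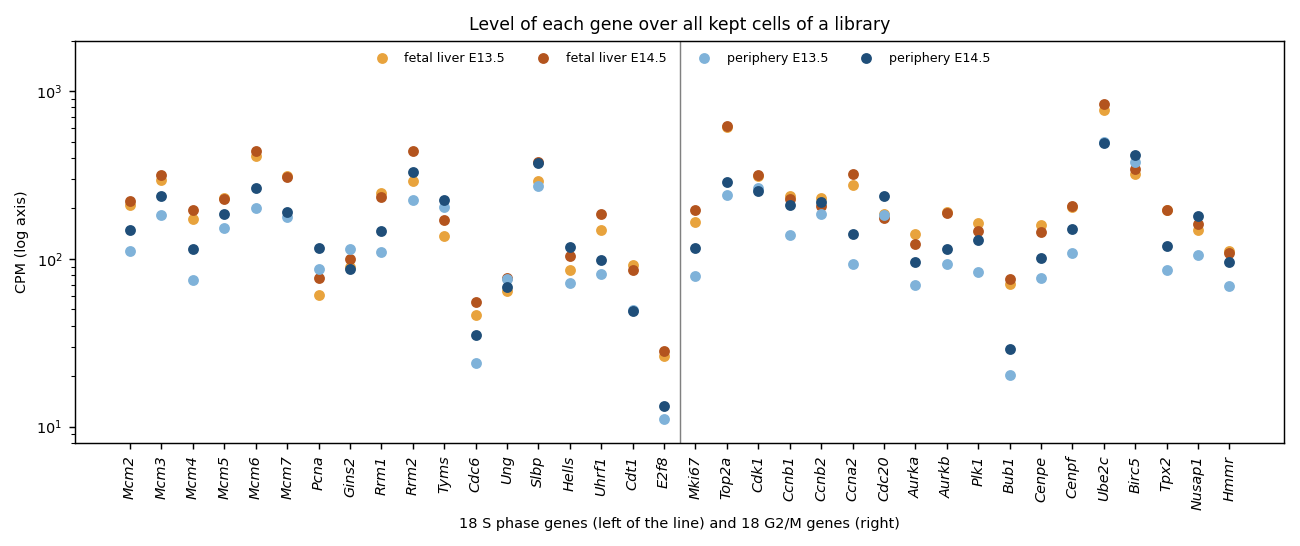
Level of each of the 36 genes in CPM (log axis) over all kept cells, with 1 point for each of the 4 libraries. Both fetal liver points lie above both periphery points for the MCM subunits and Top2a, and below them for Pcna, Tyms and Birc5.

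Among the S genes, the 6 subunits of the MCM2-7 helicase, which unwinds DNA at the fork, were all higher in fetal liver in CPM. Mcm5 (ENSMUSG00000005410, GRCm38 chromosome 8, 75109569 to 75128439) stood at 232 (229.5 to 234), 228 (226 to 230.4), 154 (150.5 to 157) and 184 (180.4 to 189) CPM. Mcm6 stood at 413, 441, 202 and 264 CPM. Mcm2 stood at 211, 220.4, 111 and 148, Mcm3 at 297, 316, 183 and 238, Mcm4 at 173, 196, 75.0 and 115 and Mcm7 at 311, 308, 178 and 191 CPM. No fetal liver value of these subunits lay within the periphery range, and all 6 were higher in periphery at E14.5 than at E13.5.

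The licensing and firing factors did not share that order. Cdc6, which loads the helicase onto origins, stood at 46.2, 55.7, 23.9 and 35.2 CPM, and its partner Cdt1 at 91.6, 85.8, 49.6 and 48.9 CPM. Gins2, a subunit of the GINS complex of the active helicase, stood at 89.2, 99.6, 115 and 87.7 CPM. Cdc6 and Cdt1 were higher in both fetal liver libraries, while Gins2 had its highest value in periphery at E13.5 and its lowest in periphery at E14.5.

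Pcna (ENSMUSG00000027342, chromosome 2, 132249162 to 132253314), the sliding clamp of the DNA polymerases, stood at 60.8 (59.7 to 61.9), 76.5 (75.3 to 77.8), 87.5 (84.9 to 90.1) and 116 (113 to 119) CPM. It was the reverse of the MCM subunits, with both periphery libraries above both fetal liver libraries.

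Of the enzymes that make deoxynucleotides, Rrm2 (ENSMUSG00000020649, chromosome 12, 24708241 to 24714146), the small subunit of ribonucleotide reductase, stood at 291 (289 to 294), 440.3 (437 to 443), 225 (220.4 to 229) and 330.4 (325 to 336) CPM. Its partner Rrm1 stood at 247, 235, 110.3 and 146 CPM and thymidylate synthase, Tyms, at 138, 169.6, 203 and 224 CPM. Rrm2 was higher at E14.5 in both tissues, Rrm1 was higher in fetal liver, and Tyms was higher in periphery.

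The remaining S genes stood as follows. The DNA glycosylase Ung stood at 64.6, 76.8, 75.5 and 67.7 CPM, the chromatin remodeller Hells at 86.0, 105, 71.5 and 118 CPM and Uhrf1, which carries DNA methylation through replication, at 149, 185, 81.5 and 98.3 CPM. Slbp, which binds histone mRNA, stood at 293, 381, 272 and 372 CPM. The repressor E2f8 was the lowest of the 18 in every library, at 26.3 (25.6 to 27.0), 28.4 (27.6 to 29.1), 11.1 (10.2 to 12.1) and 13.3 (12.2 to 14.4) CPM. Hells and Slbp were higher at E14.5 than at E13.5 in both tissues, and the tissues overlapped for Ung.

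Among the G2/M genes, the mitotic cyclins and their kinase differed in how far the tissues stood apart. Ccnb1 (ENSMUSG00000041431, chromosome 13, 100778650 to 100786570), cyclin B1, stood at 238 (236 to 240.2), 227 (225 to 229), 139.5 (136 to 143) and 209.8 (205 to 214) CPM. Cyclin B2, Ccnb2, stood at 230.2, 207, 185 and 217 CPM, cyclin A2, Ccna2, at 275, 322, 93.5 and 140.3 CPM and Cdk1, the kinase they activate, at 314, 316, 266 and 255 CPM. Ccna2 in fetal liver was well above periphery, whereas Ccnb2 in periphery at E14.5 lay between the fetal liver values.

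The other mitotic kinases were higher in both fetal liver libraries. Aurora A, Aurka, stood at 142, 124, 69.5 and 96.5 CPM, Aurora B, Aurkb, at 189.7, 189, 93.7 and 115 CPM, Plk1 at 164, 147, 83.7 and 129 CPM and the spindle checkpoint kinase Bub1 at 70.9, 76.1, 20.2 and 29.1 CPM. Bub1 was the lowest of the 18 G2/M genes in every library.

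Cdc20 (ENSMUSG00000006398, chromosome 4, 118432901 to 118437352), an activator of the anaphase-promoting complex, stood at 186 (184 to 188), 175 (173 to 177), 182 (178 to 186) and 239 (234 to 243) CPM. Ube2c, the ubiquitin-conjugating enzyme of that complex, stood at 769, 840.0, 498 and 489.5 CPM and was the highest of the 36 in every library. Cdc20 peaked in periphery at E14.5, and Ube2c was higher in fetal liver.

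Top2a (ENSMUSG00000020914, chromosome 11, 98992943 to 99024189), the topoisomerase that disentangles sister chromatids, stood at 614 (611 to 618), 622 (618 to 626), 239.5 (235 to 244) and 289 (284 to 294) CPM. Mki67 (ENSMUSG00000031004, chromosome 7, 135689784 to 135716361), which coats mitotic chromosomes, stood at 165 (163 to 167), 197 (195 to 199), 78.9 (76.4 to 81.4) and 116 (113 to 119) CPM. Both genes were more than 1.5 times as high in fetal liver as in periphery at each stage.

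The centromere and spindle genes divided between the tissues. The kinetochore motor Cenpe stood at 160.2, 145, 77.1 and 101 CPM, Cenpf at 205, 208, 108 and 151 CPM and survivin, Birc5, at 322, 346, 381 and 418 CPM. Of the spindle genes, the Aurora A activator Tpx2 stood at 195, 195, 86.0 and 119.6 CPM, the microtubule bundler Nusap1 at 149, 161, 106 and 180.1 CPM and the hyaluronan receptor Hmmr, which binds spindle microtubules, at 112, 109, 69.2 and 95.4 CPM. Birc5 was higher in both periphery libraries, Nusap1 was highest in periphery at E14.5, and the other 4 were higher in fetal liver.

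Between stages in fetal liver, the S genes were mostly a little higher at E14.5 and the G2/M genes divided. Clusters named B lineage-like held 8.85% of fetal liver cells at E13.5 and 44.1% at E14.5. Their part in these differences was not tested. Folds are log2 differences after adding 5 CPM to each side, less the median over all genes at 10 CPM or more in either library, and all 36 genes passed that minimum in every comparison. Of the 18 S genes, 16 were higher at E14.5, with a median of 0.19, and of the 18 G2/M genes 11 were higher, with a median of 0.03. Rrm2 alone of the 36 passed 0.5, at 0.62, where 3.55% of all measured genes were higher by that much and 2.87% lower. Slbp (0.40) came next among the S genes, while Cdt1 (-0.06) and Rrm1 (-0.04) were lowest. Among the G2/M genes Mki67 (0.28) and Ccna2 (0.26) were highest and Aurka (-0.16) and Plk1 (-0.12) lowest. With cells of at most 5% mitochondrial UMIs, 7 of 18 G2/M genes were higher, and without taking off the all-gene median of -0.03, 14 S and 9 G2/M genes were.

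Between stages in periphery, both lists were mostly higher at E14.5 in UMIs summed over all kept cells, with a few S genes clearly lower. The share of cells past a minimum of G2/M UMIs, given below, was lower at E14.5. Clusters named LTi-like held 42.7% of periphery cells at E13.5 and 73.1% at E14.5, and their part in these differences was not tested. Of the 18 S genes 12 were higher, with a median of 0.14, and of the 18 G2/M genes 14, with a median of 0.21. Nusap1 (0.51) was the member that was higher by 0.5 or more and Gins2 (-0.60) the member that was lower by as much, where 7.65% of all measured genes were higher by that much and 8.33% lower. Hells (0.46) and Mcm4 (0.36) were the highest S genes, and Ung (-0.37) was lowest after Gins2. Plk1 (0.37) was second among the G2/M genes, and Cdk1 (-0.28) and Ube2c (-0.25) were lowest. The all-gene median taken off was 0.23, and without that step 15 S and 16 G2/M genes were higher.

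Between tissues at E13.5, members of 1 list stood far apart from each other. In fetal liver 11 of 18 S genes were higher, 4 of them by 0.5 or more, and 4 were lower by as much, where the background was 25.0% of genes higher and 27.0% lower. Of the G2/M genes 14 of 18 were higher, 9 of them by 0.5 or more, and 1 was lower by as much. Mcm4 (0.75) and Rrm1 (0.72) were the highest S genes, and Tyms (-0.95) and Pcna (-0.90) the lowest. Bub1 (1.18) and Ccna2 (1.10) were the highest G2/M genes, and Birc5 (-0.65) and Cdc20 (-0.38) the lowest.

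At E14.5 the same direction held for most of these genes. Of the S genes 14 of 18 were higher in fetal liver, 6 of them by 0.5 or more, and 2 were lower by as much, where the background was 25.1% higher and 26.3% lower. Of the G2/M genes 13 of 18 were higher, 7 of them by 0.5 or more, and 1 was lower by as much. Uhrf1 (0.71) and E2f8 (0.70) were the highest S genes, and Pcna (-0.74) and Tyms (-0.56) the lowest. Bub1 (1.08) and Ccna2 (1.0) again led the G2/M genes, and Cdc20 (-0.60) and Birc5 (-0.44) were lowest. Ribosomal protein genes took 19.1 and 19.5% of UMIs in fetal liver and 29.5 and 24.0% in periphery, and their part in these folds was not tested. The all-gene medians taken off were 0.41 at E13.5 and 0.17 at E14.5, and without them 17 and 14 G2/M genes and 14 and 15 S genes were higher, with Cdc20 at 0.03 at E13.5.

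Cells were then counted by list after thinning each to 4000 UMIs, since depth differs between kits, and a cell was past the minimum with 5 UMIs or more over the 18 genes of a list. More than 3 in 4 fetal liver cells passed it for the G2/M list, against about 2 in 5 in periphery. The shares were 78.4% (77.6 to 79.2) and 79.1% (78.3 to 79.9) in fetal liver, E13.5 before E14.5, and 42.5% (40.9 to 44.0) and 38.5% (37.0 to 40.04) in periphery. For the S list they were 91.4% (90.8 to 91.9), 93.2% (92.7 to 93.7), 64.5% (63.0 to 66.0) and 61.1% (59.5 to 62.6). Which periphery stage had the higher S share depended on the thinning depth and the minimum. Without thinning, the G2/M shares were 92.7% (92.2 to 93.2), 89.9% (89.3 to 90.4), 54.8% (53.2 to 56.3) and 46.2% (44.7 to 47.7).

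Cells past neither minimum made up 1.79% (1.54 to 2.07) and 1.67% (1.43 to 1.93) of fetal liver and 24.7% (23.3 to 26.1) and 30.2% (28.8 to 31.6) of periphery. Before thinning, these cells were shallower, with median UMIs of 8394, 6415, 8314 and 6482 against 20407, 17826, 15102 and 13076 in cells past both. The 6 periphery classes and clusters with enough cells at both stages held 67.1% of thinned cells at E13.5 and 94.1% at E14.5. They therefore leave out many E13.5 cells and do not stand for the whole library. Their G2/M share was 45.3% at E13.5 and 39.2% at E14.5, and 40.2% at E14.5 with each weighted by its share at E13.5. In the 13 such classes and clusters of fetal liver, the S share was 91.4% at E13.5 and 93.2% at E14.5. Their G2/M share was 78.4% and 79.2%. With the same weighting the E14.5 values were 91.1% for S and 77.7% for G2/M, slightly below those at E13.5. Both lie within the E13.5 intervals of the whole library, 90.8 to 91.9% for S and 77.6 to 79.2% for G2/M. Of these 13, 9 had a higher S share at E14.5 and 4 a higher G2/M share. Cells with 4 to 6 G2/M UMIs, near the limit, were 13.6, 12.98, 8.71 and 7.29% of the libraries.

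For most single genes, the share of thinned cells with at least 1 UMI was higher in both fetal liver libraries than in both periphery libraries. Top2a was seen in 73.6, 74.1, 37.5 and 36.3% of cells, Mki67 in 39.6, 44.6, 18.4 and 21.8%, Ccnb1 in 44.8, 44.6, 24.5 and 27.6% and Cdc20 in 40.6, 39.2, 28.4 and 29.4%. Mcm5 was seen in 58.0, 57.2, 39.1 and 39.995%, Rrm2 in 55.5, 66.6, 35.1 and 37.5% and Pcna in 21.9, 26.2, 26.2 and 28.8%. Pcna did not follow that order, since its share in fetal liver at E13.5 was the lowest, and neither did 4 other S genes. Gins2 was seen in 29.3, 32.8, 31.8 and 22.4% of cells, Hells in 28.0, 32.4, 21.7 and 31.3%, Slbp in 64.9, 73.5, 60.2 and 67.5% and Tyms in 39.1, 45.3, 39.8 and 40.2%. At the low end, Top2a was seen in 6.18% and Ccnb1 in 1.99% of thinned cells of P1 at E13.5. P1 is the cluster of similar periphery cells with the lowest G2/M sum, at a median depth of 8952 UMIs. In periphery cluster P16, with the lowest G2/M sum at E14.5, they were seen in 10.4 and 6.13%. These clusters are named for their low sums and are no measured background.

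Cells of each tissue were clustered without the 36 genes and 65 other cell cycle genes, and clusters were named as like a cell type from marker genes. Other genes that vary through the cycle stayed in, and the histone gene Hist1h2ap is among the 10 leading genes of P8, so clusters can differ by cycle stage. In fetal liver, stem or multipotent progenitor-like cells had the highest G2/M shares at E14.5, 95.4% (90.7 to 98.1), after 90.6% (88.7 to 92.3) at E13.5. Neutrophil lineage-like cells were close, at 90.7% (86.2 to 94.1) and 89.3% (82.7 to 94.0). The 4 unnamed fetal liver clusters with at least 50 cells in a library, plasmacytoid-like and mast cell or basophil-like cells lay between 72.9 and 84.2% over both stages. Innate lymphoid progenitor-like cells stood at 80.4% (77.9 to 82.6) and 79.2% (75.2 to 82.8), and lymphoid progenitor-like cells at 74.5% (72.3 to 76.6) and 70.1% (65.4 to 74.5). B lineage-like cells stood at 76.0% (72.5 to 79.2) and 85.3% (84.3 to 86.4). Their cluster FL9 was lower, at 64.0% (58.7 to 69.0) and 55.9% (52.4 to 59.3).

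Among fetal liver classes taken whole, the lowest G2/M shares were in 2 classes of innate lymphocyte-like cells, though B lineage-like cluster FL9 was also low. Group 1 innate lymphoid or NK-like cells stood at 49.5% (38.8 to 60.1) and 62.8% (56.8 to 68.4), and LTi-like cells at 57.8% (52.9 to 62.6) and 46.9% (40.1 to 53.9). The intervals of these classes do not reach those of the progenitor-like classes at E13.5, but at E14.5 that of the Group 1 innate lymphoid or NK-like cells overlaps that of the lymphoid progenitor-like cells. LTi-like cells also had low S shares, 60.96% (56.1 to 65.7) and 66.7% (59.9 to 73.0), while every other fetal liver class had at least 72.2%. Their summed G2/M level, at 5489 (5429 to 5549) and 4749 (4662 to 4836) CPM, was nevertheless above that of all fetal liver cells together. At E14.5 it was the median of the 17 fetal liver clusters with at least 50 cells. With each cell given equal weight it was lower, at 4302 and 3350 CPM.

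**Figure D2:**
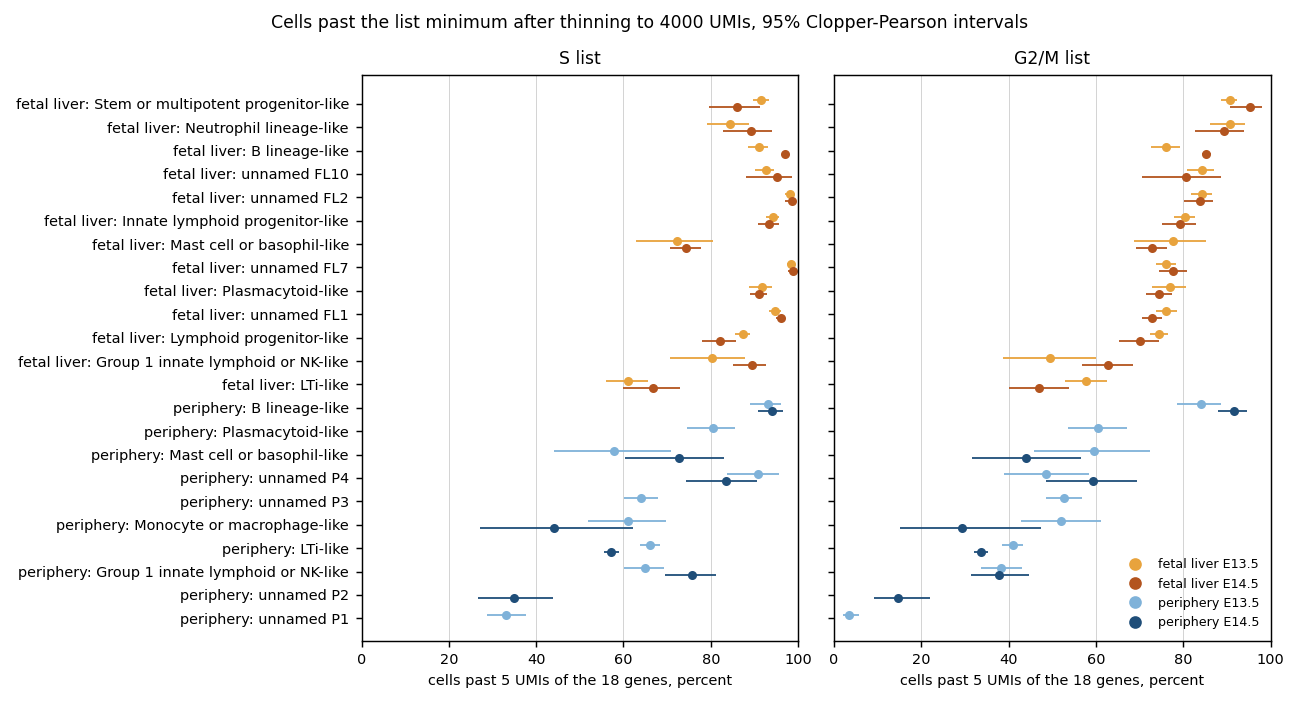
Percent of thinned cells with 5 or more UMIs of the S genes (left) and of the G2/M genes (right) in each class or unnamed cluster with at least 50 cells in a library, with 95% Clopper-Pearson intervals. Progenitor-like and B lineage-like cells lie at the right, and LTi-like cells of periphery and unnamed clusters P1 and P2 at the left of the G2/M panel.

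In periphery, B lineage-like cells had the highest G2/M shares, 84.0% (78.5 to 88.6) at the earlier and 91.7% (88.0 to 94.6) at the later stage. Group 1 innate lymphoid or NK-like cells stood at 38.4% (33.8 to 43.2) and 37.8% (31.4 to 44.6), and LTi-like cells at 40.9% (38.6 to 43.3) and 33.6% (32.0 to 35.3). The lowest among classes and unnamed clusters was P1 at E13.5, led by MHC class II genes and holding 8 of 9 LTi markers, with 3.53% (2.03 to 5.67). Within the LTi-like class, cluster P16 at E14.5 was lower still, at 2.55% (1.60 to 3.83). Unnamed cluster P2 at E14.5, with class II genes and 9 of 9 LTi markers, stood at 14.7% (9.11 to 22.0). With P1 and P2 added to the LTi-like cells, an alternative chosen after seeing the data, the G2/M shares were 33.1% (31.1 to 35.1) and 32.5% (30.9 to 34.1), whose intervals overlap, unlike those of the named class. The S shares of the unnamed clusters were 33.1% (28.8 to 37.7) in P1 and 34.9% (26.7 to 43.8) in P2.

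Among the LTi-like cells of fetal liver, in cluster FL12 at both stages with 8 of 9 LTi and 8 of 8 innate lymphoid progenitor markers, the S genes were slightly higher and the G2/M genes slightly lower at E14.5. Of the S genes 15 of 18 were higher, with a median of 0.13, and none by 0.5, where 5.71% of measured genes were higher by that much and 4.56% lower. Of the G2/M genes 17 of 18 were lower, with a median of -0.20, and Plk1 (-0.59) alone by 0.5 or more. Plk1 went from 221 to 148 CPM, Ccnb1 from 294 to 213 CPM and Cenpe from 205 to 153 CPM, while Tyms went from 128 to 176 CPM. Tyms (0.41) and Rrm2 (0.30) were the highest S genes and Rrm1 (-0.14) and E2f8 (-0.09) the lowest, and Bub1 (0.02) and Aurkb (-0.01) were the highest G2/M genes. These values rest on 422 and 226 cells with median depths of 12160 and 9227 UMIs.

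Among the LTi-like cells of periphery, members of both lists differed in both directions and the direction of the sums depended on the clustering and on whether P1 and P2 were counted in. Of the S genes 7 of 18 were higher at E14.5, with a median of -0.03, and of the G2/M genes 10 of 18, with a median of 0.04, where 6.07% of measured genes were higher by 0.5 and 6.61% lower. Gins2 (-0.77), Cdk1 (-0.60) and Ube2c (-0.54) were lower by 0.5 or more. Gins2 went from 115 to 77.6 CPM, Cdk1 from 274 to 212 CPM and Ube2c from 525 to 424 CPM, while Hells (0.33) went from 73.1 to 110.2 CPM. Mcm4 (0.19) was second among the S genes, Ung (-0.45) was lowest after Gins2, and Nusap1 (0.23) and Ccnb1 (0.10) were the highest G2/M genes. The summed G2/M level, in which high genes weigh more, differed by -0.17, opposite in sign to the median. At clustering resolution 0.5 the sums differed by 0.060 for S and 0.10 for G2/M, and at resolution 2 by 0.15 and -0.54. With unnamed clusters P1 and P2 added, chosen after seeing the data, they differed by 0.043 for S and 0.038 for G2/M, both opposite in sign. Different clusters held the class at each stage, P0 and P8 at E13.5 and P9, P10 and P16 at E14.5.

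Among the B lineage-like cells of fetal liver, members of both lists were mostly higher at E14.5. Of the S genes 17 of 18 were higher, with a median of 0.13, and of the G2/M genes 15 of 18, with a median of 0.25, where 5.91% of measured genes were higher by 0.5 and 8.95% lower. Tyms (0.61), Rrm2 (0.59) and Ccna2 (0.51) passed 0.5, and Ccnb1 (0.40) followed. Cdt1 (-0.16) and Mcm6 (0.04) were the lowest S genes, and Ccnb2 (-0.19) and Cenpe (-0.11) the lowest G2/M genes. Tyms went from 125 to 188 CPM, Rrm2 from 425 to 623 CPM and Ccna2 from 279 to 387 CPM. Clusters FL9 and FL11 held most of the class at E13.5 and FL14, FL15 and FL9 most of it at E14.5. The summed S level differed by 0.23, but by 0.050 without FL11, whose cells had median depths of 3669.5 and 2640.5 UMIs, and the summed G2/M level by 0.22 and 0.14.

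The G2/M level of LTi-like cells was spread over a wide range of cells rather than around a middle value. At E13.5 in periphery 25.9% (23.8 to 28.0) of 1715 LTi-like cells had 0 G2/M UMIs and 5.36% (4.35 to 6.54) had 40 or more. At E14.5 the values were 26.9% (25.3 to 28.5) and 7.70% (6.79 to 8.69) of 3118 cells. In fetal liver 16.6% (13.2 to 20.6) of 415 cells at the earlier and 17.4% (12.5 to 23.1) of 213 cells at the later stage had 0, and 18.3% (14.7 to 22.4) and 12.7% (8.52 to 17.9) had 40 or more.

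**Figure D3:**
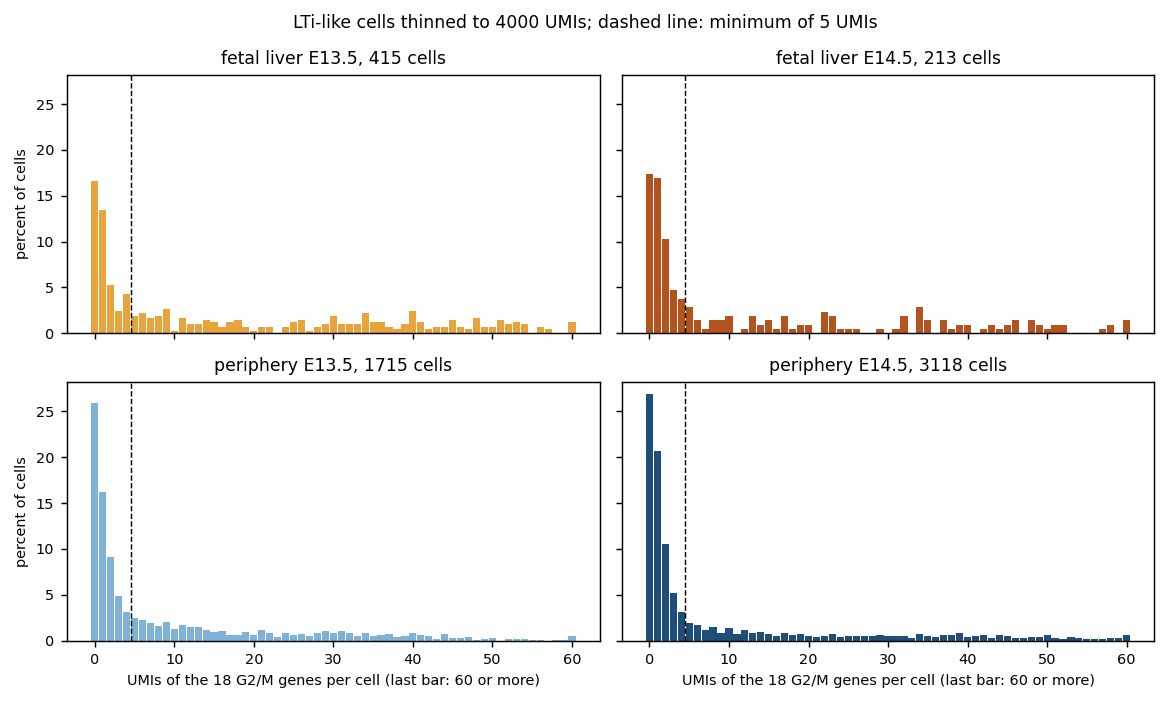
G2/M UMIs per LTi-like cell after thinning to 4000 UMIs, as percent of the cells of each library. The tallest bar in each library is at 0, and a long tail runs past 40 UMIs in all 4 libraries.

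Of the 2 lists, the G2/M genes differed more between the LTi-like clusters of periphery. These clusters were compared after their values had been seen, so the folds are a description, and each cluster holds cells of mostly 1 stage. Unlike the folds above, log2 differences between these clusters were not centred on an all-gene median. The share of all genes that differed as much was not computed. Cycle genes outside the 101 left out could enter the clustering, so the counts of members below are no independent support. At E13.5 P8 summed to 6229 (6174 to 6284) CPM of G2/M genes and P0 to 617 (603 to 632) CPM, with 94.1% (91.8 to 95.9) and 16.3% (14.2 to 18.5) of cells past the minimum. At E14.5 P9 summed to 6869 (6821 to 6918) CPM, P10 to 711 (695 to 727) CPM and P16 to 272 (259 to 285) CPM, with 89.5% (87.3 to 91.5), 16.2% (14.2 to 18.3) and 2.55% (1.60 to 3.83) of cells past it. Median depths were 14346 UMIs in P8, 9116 in P0, 12269 in P9, 7746 in P10 and 6528 in P16, so the clusters high in G2/M genes were also the deepest.

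**Figure D4:**
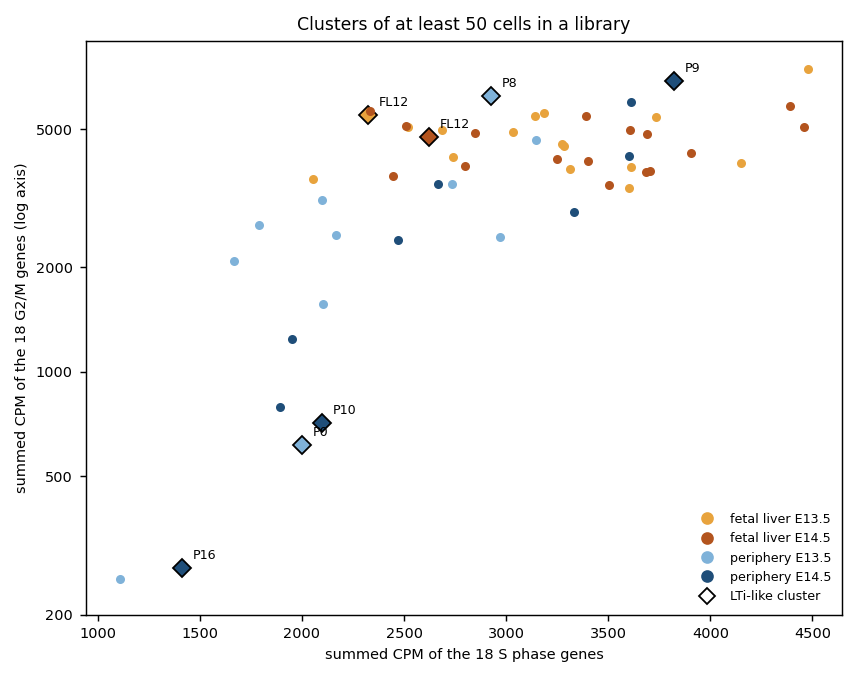
Summed CPM of the S genes (x) and of the G2/M genes (y, log axis) in every cluster with at least 50 cells in a library, with LTi-like clusters as diamonds. P8 and P9 sit among the highest G2/M sums, and P0, P10 and P16 sit below all fetal liver clusters.

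All 18 G2/M genes were higher in P8 than in P0, with a median log2 difference of 3.22, and in P9 than in P10 and P16, with medians of 3.37 and 4.29. Ube2c stood at 1198 CPM in P8 and 47.1 in P0, and at 1015, 35.5 and 24.3 CPM in P9, P10 and P16. Nusap1 stood at 289 and 8.98 CPM in P8 and P0. Ccnb2 was the least apart in the first 2 pairs (1.45 and 1.19), and P0 and P10 held 123 and 163 CPM of it, while P16 held 22.3 CPM.

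The S genes differed less, with medians of 0.22, 0.60 and 1.21. Rrm2 (2.34, 3.20 and 3.03) differed most in each pair, at 499 against 94.8 CPM in the first. Tyms (1.75, 2.16 and 2.48), E2f8 (1.55, 2.07 and 2.32) and Rrm1 (1.30, 1.60 and 2.17) followed. Ung (-1.12, -0.38 and 0.40) and Mcm2 (-0.44, -0.04 and 0.65) were near the bottom of the S list, and Mcm4 was at -0.23, -0.02 and 0.83. The 6 helicase genes ranged from -0.44 to 0.30 between P8 and P0, and P16 held all 18 S genes at lower levels than P9.

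**Figure D5:**
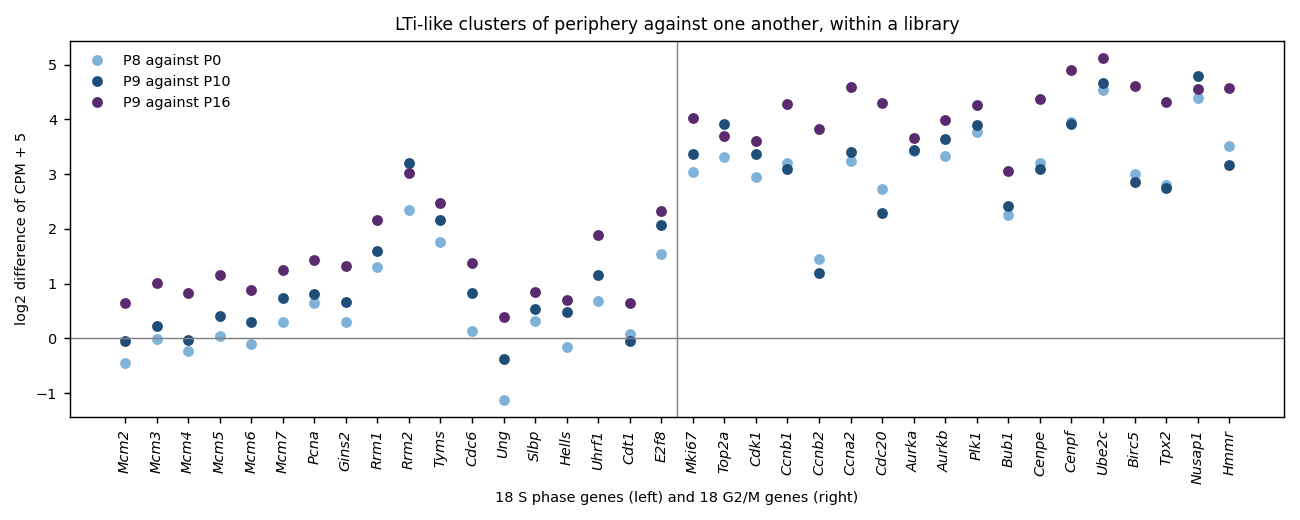
Log2 difference of CPM + 5 for each of the 36 genes between LTi-like clusters of periphery within a library, P8 against P0 at E13.5 and P9 against P10 and P16 at E14.5. All G2/M genes lie above 0, and the S genes range from below 0 to above 3.

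Within cells, each member was compared between cells past the minimum of 1 list only, with that member left out of the sums. These log2 differences were not centred on an all-gene median either. All 18 G2/M genes were higher in cells past the G2/M minimum only, in all 4 libraries, with medians of 3.09, 3.22, 3.67 and 3.84 on the log2 scale. Cenpf differed by 4.57, 4.58, 4.75 and 5.04, Ube2c by 4.65, 5.05, 5.28 and 4.93 and Hmmr by 4.37, 4.35, 4.40 and 4.98. Top2a differed by 1.95, 1.93, 1.76 and 2.27, the least or near the least in each library, and cells past the S minimum only held 205 CPM of it in fetal liver at E13.5.

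Of the 18 S genes 16, 17, 15 and 17 were higher in cells past the S minimum only. Ung differed most, by -4.52, -4.39, -4.07 and -3.70, and stood at 177 CPM in S-only and 2.92 CPM in G2/M-only cells of fetal liver at E13.5. Rrm1 (0.11, -0.05, 0.24 and -0.05), Tyms (-0.23, -0.11, 0.00077 and -0.21) and E2f8 (0.01, 0.56, 0.47 and 0.39) were close to 0 or above it and stood highest in cells past both minimums. Rrm2 differed by -1.64, -1.48, -0.31 and -0.14, closer to 0 in periphery than in fetal liver, and in periphery at E14.5 stood at 732 CPM in cells past both minimums against 132 CPM in S-only cells. These groups of cells were formed from the other members of the same lists, so the order of a list's members is a description.

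Of genes outside the 36, those whose level was most like the G2/M sum over the 54 clusters by library were Smc2 (r = 0.98), Kif22 (0.97), Cdca8 (0.97), Prc1 (0.97), Racgap1 (0.97), Ncapg (0.96), Cdca3 (0.96), Kif2c (0.95), H2afx (0.95) and Shcbp1 (0.95). Among those most like the S sum were Tipin (0.90), Fen1 (0.90), Cenpk (0.89), Rpa2 (0.87), Gmnn (0.86), Orc6 (0.86), Anp32e (0.85), Exo1 (0.85) and Rfc4 (0.85). The clusters share 4 libraries and their depth, so r describes these points only.

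The other cell cycle genes were described in 5 lists. Of 18 replication genes, 17 were higher at E14.5 in fetal liver, with a median of 0.19, and 3 of the 17 measured were higher in periphery, with a median of -0.18. Dut (0.39) was the highest in fetal liver and the lowest in periphery (-0.67). Of 20 genes of mitosis, 12 were higher in fetal liver and 16 of the 19 measured in periphery, led by Cdc25b (0.58) and Kif20a (0.53). Of the G1 cyclins and kinases 5 of 8 were higher in fetal liver and 4 of 8 in periphery, with Ccnd3 at 1.73 in fetal liver and Ccnd1 at -1.01 in periphery. Of the inhibitors 6 of the 7 measured were higher in fetal liver, led by Cdkn2c (1.08), and 2 of the 5 measured in periphery, led by Btg1 (1.14). Of the regulators 8 of 8 measured were higher in fetal liver, led by E2f2 (1.45), and 6 of 7 in periphery, led by Rbl2 (0.73).

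In the LTi-like cluster pairs all 20 genes of mitosis were higher in P8 than in P0 and in P9 than in P10 and P16, with medians of 2.32, 2.43 and 2.95. Prc1 led the first 2 pairs at 3.61 and 3.86. Foxm1 (1.79, 1.78 and 1.91) and Mybl2 (1.22, 1.84 and 2.05), which drive the G2/M genes, were higher too. Ccnd1, a D-type cyclin of G1, differed in sign between the pairs (-0.37, 0.30 and -2.17), and the antiproliferative gene Btg1 was lower in all 3 (-0.26, -0.64 and -1.29). Of the inhibitors, Cdkn2c (0.59, 1.83 and 1.60) and Cdkn2d (1.68, 1.57 and 1.76) were higher in the clusters high in G2/M genes. Cdkn2c was also under the minimum of 10 CPM in P8 and P0, at 3.18 and 0.45 CPM.

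Between tissues, 15 of 20 genes of mitosis were higher in fetal liver at E13.5 and 18 of 20 at E14.5, led by Ect2 (1.63 and 1.5), and 7 and 14 of 18 replication genes, led by Chaf1a (1.72 and 1.60). Of the G1 genes 5 and 7 of 8 were higher in fetal liver, led by Ccnd1 (1.86 and 2.51), and of the regulators 6 of 8 and 7 of 9, led by Myc (2.28 and 1.97). Of the inhibitors 2 of 6 and 2 of 7 were higher. The inhibitor Cdkn1a (-2.84 and -1.91) and the antiproliferative gene Btg2 (-2.58 and -2.16) were the lowest of that list in fetal liver at both stages.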

How the data were processed

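Single-cell UMI counts were used as deposited, in 4 gene by barcode matrices of whole counts that were not normalized. Cell Ranger 3 and the mm10 genome are named in the submitters' processing notes, and per the file headers the software version was 3.0.0 in the fetal liver files and 3.0.1 in the periphery files. The annotation release is not given in the sources used here, and gene positions come from GENCODE for GRCm38.

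Barcodes were kept from 500 genes upwards and up to 10% mitochondrial UMIs. Doublets were scored with Scrublet in scanpy 1.11.5 at a rate expected from the number of barcodes. The automatic threshold was used in fetal liver, and the top scores up to the expected rate were marked in periphery, where the automatic threshold marked a share outside 0.5 to 15%. Marked barcodes (382, 893, 140 and 145) were left out. Cells of each tissue were clustered over both stages from counts scaled to 10000 per cell, 2000 variable genes, 30 components, 15 neighbours and Leiden resolution 1 with seed 1, without 101 cell cycle genes and without haemoglobin, mitochondrial and ribosomal genes. A class name needed at least 3 of its markers, and more present than missing, at 20 CPM or more and a log2 excess of 1 over the lower quartile across clusters, and 1 of them among the 10 leading genes. That last condition was added after a first clustering was seen, and without it FL18 and P4 would also have been named.

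CPM came from UMIs summed over cells, with exact Poisson intervals, and shares of cells have Clopper-Pearson intervals. For shares, cells under 4000 UMIs were left out (299, 551, 214 and 287). A 3′ UMI counts a molecule once whatever its length. The fold between libraries was checked on simulated counts, and thinning against the counts expected from the periphery library at E13.5. The other steps were not checked in this way. All 36 members could be named. In each comparison the 2 highest and 2 lowest folds of each list were named, 7 genes (with E2f8 added) were given in every library with intervals, and the 10 genes most like each list were chosen by correlation, of which 1 is not reported here. The members, lists and markers were chosen with earlier results of these data known, and the cluster pairs, with the genes named in them, after their values were seen. Alternatives were other pseudocounts, centrings, filters, thinning depths, minimums and clusterings. With 1 library per group no replicate could be left out.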

Additional observations from a re-analysis of the deposited data

Results flagged for a closer look

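Some stage differences had opposite signs in fetal liver and periphery, and none of these differences between tissues was tested, since there is 1 library per group. Gins2 differed by 0.18 between E14.5 and E13.5 in fetal liver and by -0.60 in periphery. Ung differed by 0.26 in fetal liver and by -0.37 in periphery. The summed S list in LTi-like cells differed by 0.14 in fetal liver and by -0.079 in periphery, and the latter turned positive at clustering resolutions 0.5 and 2 and with unnamed clusters P1 and P2 added.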

How the results depend on the processing

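Shares of cells past a list minimum depend on depth and on the minimum, while fetal liver stayed above periphery for both lists under every setting tried. In the order of fetal liver E13.5 and E14.5 and periphery E13.5 and E14.5, thinning to 2000 UMIs gave S shares of 65.3, 72.4, 38.998 and 42.3% and G2/M shares of 60.4, 60.2, 31.9 and 30.04%. Without thinning they were 97.4, 96.5, 81.0 and 73.8% and 92.7, 89.9, 54.8 and 46.2%. At least 3 UMIs gave 97.2, 97.5, 78.3 and 77.4% and 88.0, 87.7, 50.9 and 46.7%. At least 10 UMIs gave 65.1, 73.3, 37.7 and 42.3% and 59.5, 59.6, 32.0 and 30.2%. In periphery the S share was thus higher at E14.5 with thinning to 2000 UMIs or at least 10 UMIs, and lower in the other settings given here. In fetal liver 7 G2/M genes were higher at E14.5 with cells of at most 5% mitochondrial UMIs, against 11. The summed stage folds of classes moved most, and the cause was not tested. In LTi-like cells of periphery, S and G2/M reversed at resolution 0.5 (0.060 and 0.10), S reversed at resolution 2 (0.15, with G2/M at -0.54), G2/M was -0.37 with seed 2 and also with cell cycle genes kept, and equal weight per cell gave -0.15 and -0.27. Adding unnamed clusters P1 and P2, chosen after seeing the data, reversed both (0.043 and 0.038). In LTi-like cells of fetal liver, G2/M was -0.20 with seed 2, cell cycle genes kept gave 0.19 and -0.34, and equal weight gave -0.39 for G2/M. Resolutions 0.5 and 2 were not run for them, because no such class had 50 cells in both libraries. In B lineage-like cells of fetal liver, S and G2/M were 0.30 and 0.11 at resolution 0.5, 0.052 and 0.10 at resolution 2, 0.21 and 0.30 with seed 2, and 0.40 and 0.27 with equal weight, and G2/M was 0.25 with cell cycle genes kept. Leaving out shallow cluster FL11, an alternative chosen after seeing the data, gave 0.050 and 0.14, and naming clusters without the leading-gene condition, also chosen then, moved none of these sums. No paired analysis was possible because each group has 1 library.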
